A study of Sus scrofa with 17 samples.

Results

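The genes described here encode the enzymes, mitochondrial except for MDH1 and GOT1 of the cytosol, that burn pyruvate, branched-chain amino acids and fatty acids. Of 38 symbols chosen for the pyruvate dehydrogenase complex, the citrate cycle, the malate-aspartate shuttle, branched-chain amino acid breakdown and fatty acid beta-oxidation, 37 had a row among the 31908 genes of the count table. The exception was ECI1, which was dropped. Of the 37 genes, 36 passed the filter on low counts and were tested among 14203 genes. The RNA came from longissimus muscle of male Large White × Duroc piglets, which were 28 days old when they came to the trial, had 5 days to adapt and then ate their diet for 2 weeks. Control piglets (n = 6) ate a wheat, maize and soybean meal diet, UL piglets (n = 6) ate this diet with 7% replaced by the green seaweed Ulva lactuca, and ULU piglets (n = 5) ate the UL diet with 0.01% ulvan lyase, a recombinant enzyme that cuts the cell wall polysaccharide ulvan. Each library came from 1 piglet. The comparisons ask whether the seaweed, alone or with the enzyme, shifted the expression of these genes in muscle.

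Muscle makes most of its ATP by oxidizing acetyl-CoA. The pyruvate dehydrogenase complex forms acetyl-CoA from the pyruvate of glycolysis, and beta-oxidation forms it from fatty acids that the carnitine shuttle has carried across the inner mitochondrial membrane. Leucine, isoleucine and valine are first transaminated by BCAT2 and then decarboxylated by the branched-chain ketoacid dehydrogenase complex, and their carbon enters the citrate cycle as acetyl-CoA or succinyl-CoA. The cycle passes electrons to NAD+ and to flavoproteins, while the malate-aspartate shuttle moves reducing equivalents from the cytosol into mitochondria. Skeletal muscle is a main site of branched-chain amino acid transamination.

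The libraries held between 16137365 and 26546810 counted reads, and 3 reads corresponded to between 0.113 and 0.186 CPM. These CPM are reads of a gene in every 1000000 reads of a library whose total was scaled by TMM, a factor that equalises the bulk of the genes between libraries. The 37 genes together took between 0.677% and 1.02% of all counted reads. The skeletal muscle genes ACTA1, CKM and MYL1 summed to between 95360 and 255000 CPM per library. ATP8, an ATP synthase subunit encoded on the mitochondrial chromosome, stood at 0.566 CPM in UL 27 and 0.437 CPM in ULU 40, against 911 to 1528 CPM in the other 15 libraries. The 37 genes lie on 17 chromosomes of the assembly Sscrofa11.1, with 7 on chromosome 6. HADHA (chromosome 3, 112752865 to 112797735, plus strand) and HADHB (chromosome 3, 112704023 to 112753086, minus strand) code for the alpha and beta subunits of the trifunctional protein and overlap head to head by 222 bases. Of the 37 genes, 17 overlap another gene on the opposite strand, counting whole gene spans with introns. Without strand information, reads from places where exons of both genes overlap cannot be assigned to either gene. Whether exons overlap was not examined.

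Levels between genes were compared as CPM per kilobase of the counted gene model, over all 17 libraries. SUCLA2, the ATP-forming beta subunit of succinyl-CoA synthetase, came first with 338 ± 58.9 CPM per kilobase (SD, n = 17). MDH2, the mitochondrial malate dehydrogenase that closes the citrate cycle, followed with 314 ± 67.2 CPM per kilobase (SD, n = 17), and the ranges of both genes overlapped (267.5 to 487 and 200.4 to 432). IDH2, GOT2 and MDH1 came next, with means of 154.5, 152 and 140.5 CPM per kilobase, and did not differ beyond their spread. The branched-chain genes and the carnitine shuttle genes filled most of the lower end, from 20.15 CPM per kilobase for the carrier SLC25A20 to 4.05 for CPT2. ETFB, the beta subunit of the electron transfer flavoprotein, had only 1 to 6 reads per library and was not tested, although its partner ETFA had 4142 to 8359 reads. The span of the ETFB row (chromosome 6, 58501808 to 58517580) overlaps that of CLDND2 on the same strand, which had a mean of 8.12 reads per library. Why ETFB had so few reads was not tested.

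**Figure D1:**
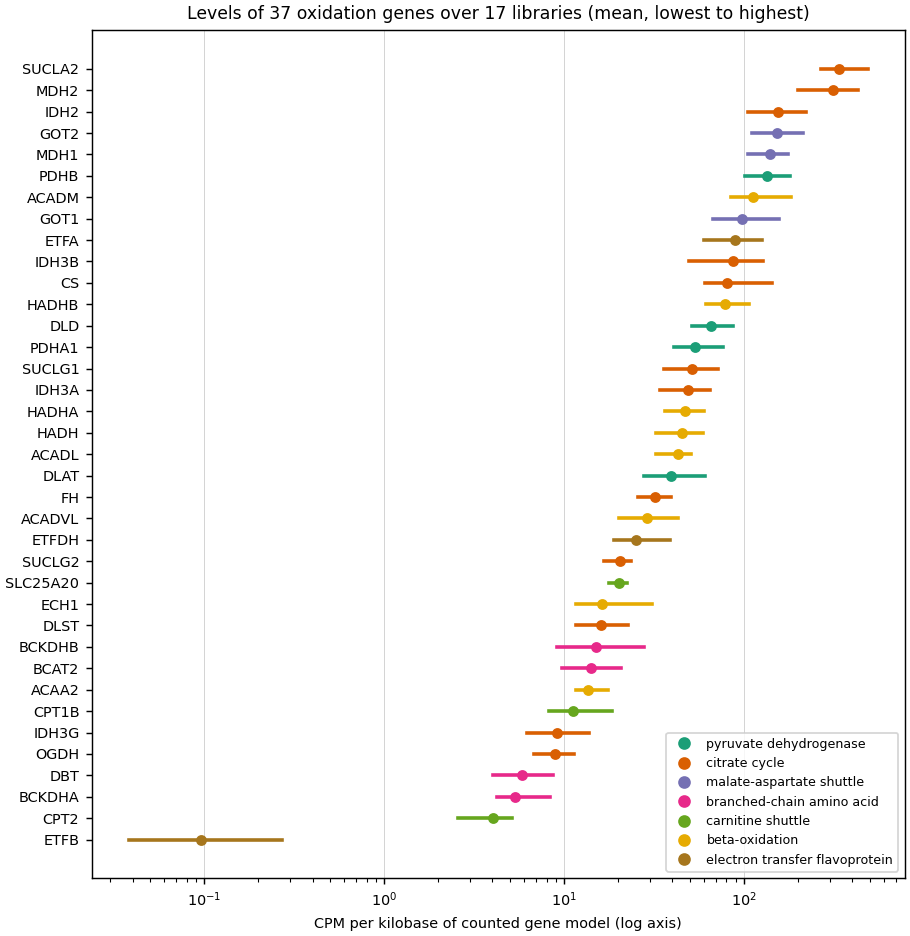
CPM per kilobase of the counted gene model on a log axis for the 37 genes, ordered by their mean; points are means over 17 libraries, lines run from the lowest to the highest library, and colours mark the pathway. Levels run from 338 for SUCLA2 to 4.05 for CPT2, with the near-empty ETFB row at 0.0957.

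Enzyme partners stood at unequal levels, and their ratios are given as a description with no test. The ratios are of CPM per kilobase, so they depend on the lengths of the counted gene models. These were 2506 bases for SUCLA2 and 6523 for SUCLG2, and 2622 for BCKDHB and 6370 for BCKDHA. SUCLA2 was 16.4 ± 1.94 times (SD, n = 17) the level of SUCLG2, the GTP-forming alternative subunit, with a range of 13.6 to 20.7. PDHB, the beta subunit of pyruvate dehydrogenase, was 2.55 ± 0.258 times (SD, n = 17) the level of PDHA1 per kilobase. HADHB was 1.89 ± 0.205 times (SD, n = 6) the level of HADHA in control, 1.62 ± 0.175 times (SD, n = 6) in UL and 1.55 ± 0.153 times (SD, n = 5) in ULU. BCKDHB to BCKDHA, the beta and alpha subunits of the branched-chain ketoacid dehydrogenase, had ratios of 3.225, 2.48 and 2.73 in the same order, with SDs of 0.359, 0.398 and 0.443. The ratio of mitochondrial MDH2 to cytosolic MDH1 had means of 1.94 in the 6 control, 2.21 in the 6 UL and 2.61 in the 5 ULU piglets, with SDs of 0.212, 0.200 and 0.246. The ULU range of this ratio (2.29 to 2.94) overlapped the control range (1.80 to 2.36) at its lower end. GOT2 to GOT1, the mitochondrial and cytosolic aspartate aminotransferases, had ratios of 1.57, 1.56 and 1.64 with SDs of 0.102, 0.142 and 0.262, which differed by less than this spread.

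In ULU vs control, all 36 genes had a log2(fold change) above 0, and 7 rose past the adjusted threshold: MDH2, ACADVL, DLAT, HADHA, GOT2, IDH3G and ETFDH. These came from 5 pathways, with 2 in the citrate cycle, 2 in beta-oxidation and 1 each in pyruvate dehydrogenase, the malate-aspartate shuttle and the electron transfer flavoprotein system. Their fold changes ran from 1.34 to 1.55, so none reached the log2(fold change) of 1 that the study asked of a differentially expressed gene. Of all 14203 genes, 1.99% rose and 0.993% fell at an adjusted p-value under 0.05, while 0.415% also had a log2(fold change) of 1 or more up or down. Adjusted p-values throughout come from the quasi-likelihood test of edgeR with the Benjamini-Hochberg method over all 14203 genes, and SE is the standard error of a log2(fold change). A log2(fold change) above 0 was found for 47.0% of all genes. The median of the 36 genes was 0.32, beside -0.03 over all genes tested. At an unadjusted p-value under 0.05, 19 of the 36 were higher and 0 lower in ULU, beside 10.1% and 8.78% of all genes. In whole muscle, fewer cells of a type and less RNA per cell cannot be told apart. Without both UL 27 and ULU 40, the libraries low in ATP8, edgeR called 4 of the 7, namely DLAT, MDH2, ACADVL and HADHA.

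These calls depended on the libraries and the model. MDH2 and ACADVL kept an adjusted p-value under 0.05 when any single library was left out. DLAT lost it without piglet ULU 43. HADHA lost it without Control 22, 23, 24 or 26 or ULU 40, 41, 43 or 44. GOT2 and IDH3G kept it only without Control 25, UL 27 or ULU 42, and ETFDH only without Control 25, UL 27 or ULU 41. When edgeR used the 11 ULU and control libraries alone, MDH2 was the only gene called. With the total count as a covariate, 0 of the 36 were called, and in that fit ULU and control differed by a median log2(fold change) of 0.22 over the 36 genes. Scaling by library totals alone, which was chosen after the data had been seen, also called 0, with a median of 0.14 for the 36 genes and -0.21 for all genes. On that scale 27 of the 36 genes were above 0, in place of all 36.

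**Figure D2:**
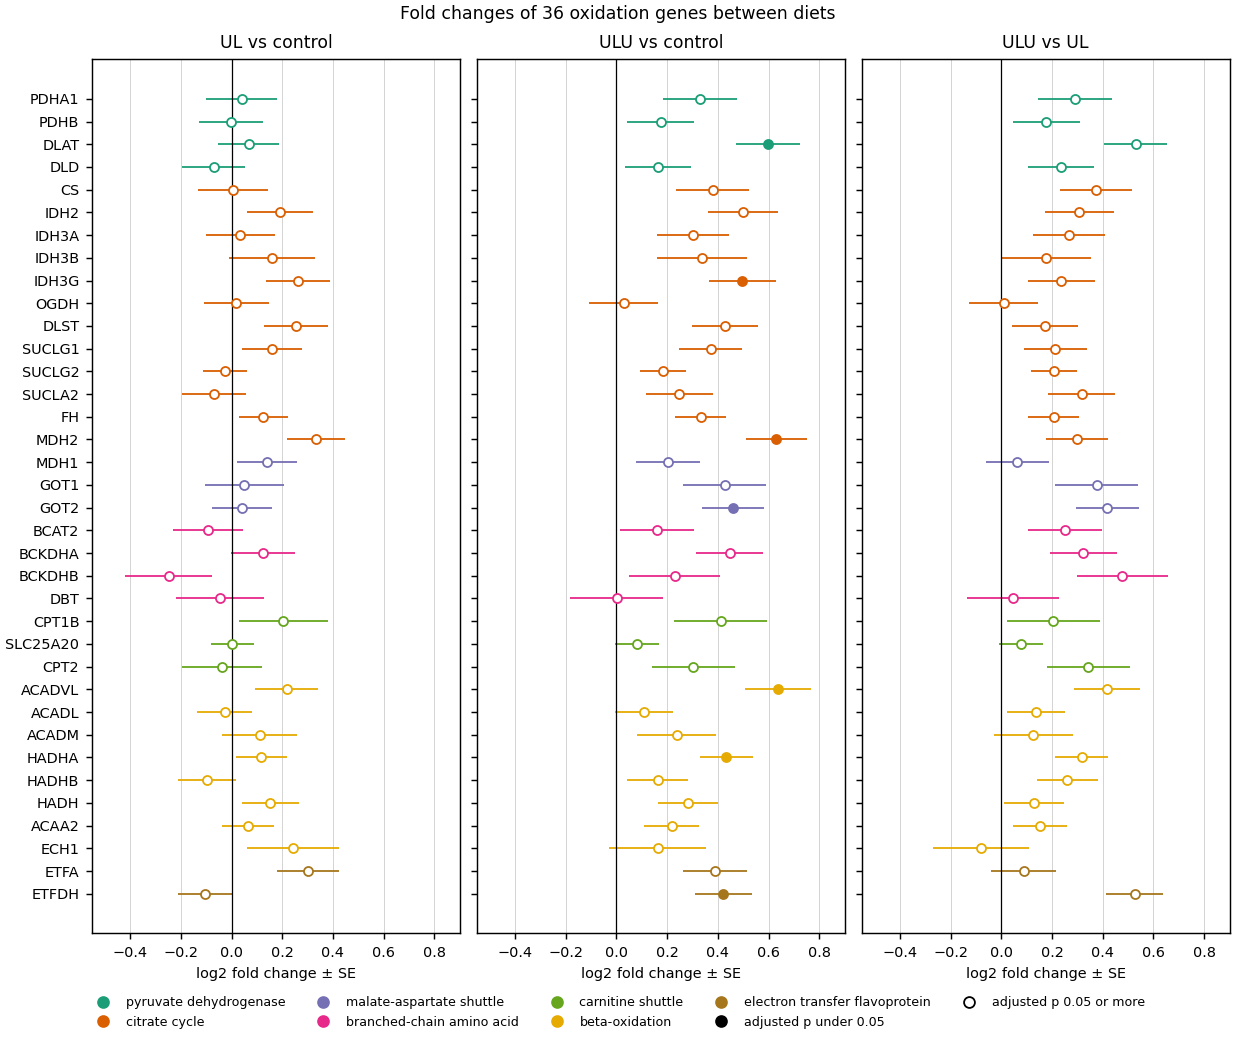
Log2(fold change) with its standard error for the 36 tested genes in each of the 3 comparisons, coloured by pathway; filled points passed an adjusted p-value of 0.05 in the edgeR test. All 36 points lie above 0 in ULU vs control (DBT at 0.00) and 7 are filled, while the UL vs control points lie on both sides of 0.

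MDH2 (chromosome 3, 10120084 to 10132830) had the smallest p-value of the 36 genes in ULU vs control. It ranged from 462 through a median of 569 to 733 CPM in control and from 661 through 690.2 to 888 CPM in UL. The ULU libraries had 918, 833, 792, 997 and 930.4 CPM, in the order of piglets 40, 41, 42, 43 and 44 that is kept for each gene. All 5 ULU piglets lay above all 6 control piglets, and UL lay between them with overlap on both sides. ULU vs control gave a log2(fold change) of 0.63 ± 0.12 (SE, adjusted p = 0.0122). The two-sided exact permutation test gave p = 0.00433, where 6 against 5 piglets allow 0.00216 at the lowest.

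Of the remaining citrate cycle genes, IDH3G, the gamma subunit of the NAD-dependent isocitrate dehydrogenase, passed the threshold. It ranged from 33.6 through 41.2 to 53.3 CPM in control and from 44.5 through 47.0 to 65.3 CPM in UL, and had 58.4, 50.6, 50.8, 75.1 and 58.6 CPM in ULU. Its ULU vs control log2(fold change) was 0.50 ± 0.13 (SE, adjusted p = 0.0485), and 3 of 5 ULU piglets exceeded every control piglet. Control 25 was the control library inside the ULU range. The row overlaps SSR4 on the opposite strand, which had more reads than IDH3G itself. The other subunits, IDH3A and IDH3B, had log2(fold change) values of 0.30 ± 0.14 (SE, adjusted p = 0.254) and 0.34 ± 0.18 (SE, adjusted p = 0.316) in the edgeR test. IDH3A covered 91.1 to 158 CPM in control and 116 to 169 CPM in ULU, and IDH3B covered 103 to 220.2 CPM and 159.7 to 252 CPM, so their diets overlapped.

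DLST, the succinyltransferase of the 2-oxoglutarate dehydrogenase complex, came close to the threshold in ULU vs control. It ranged from 38.4 through 45.7 to 52.2 CPM in control and from 44.5 through 51.3 to 73.0 CPM in UL, and had 62.2, 54.6, 50.8, 61.1 and 74.6 CPM in ULU. The log2(fold change) was 0.43 ± 0.13 (SE, adjusted p = 0.0767). OGDH, the decarboxylating subunit of the same complex, had 59.9 to 92.0 CPM in control and 66.7 to 98.0 CPM in ULU, and its log2(fold change) was 0.03. IDH2, the NADP-dependent isocitrate dehydrogenase, lay just outside the adjusted threshold (log2(fold change) 0.50 ± 0.14, SE, adjusted p = 0.0537). Citrate synthase, CS, had 394 to 585 CPM in control and 503 to 925 CPM in ULU, with a log2(fold change) of 0.38 ± 0.14 (SE, adjusted p = 0.152), and ULU 43 stood far above the next ULU piglet at 598 CPM. FH, fumarase, had 164 to 208 CPM in control and 215 to 252 CPM in ULU without overlap, with a log2(fold change) of 0.33 ± 0.10 (SE, adjusted p = 0.0767). Over the 12 citrate cycle genes the median log2(fold change) was 0.35, 2 rose, none fell, and 8 were higher at an unadjusted p-value under 0.05. Of all genes, 1.99% rose and 0.993% fell, while 10.1% were higher and 8.78% lower at the unadjusted level. DLAT, FH and MDH2 were the 3 of 36 genes whose ULU libraries all exceeded the control libraries. That pattern held for 2.3% of all genes, and the opposite one for 1.09%.

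DLAT (chromosome 9, 39738564 to 39765331), the acetyltransferase core of the pyruvate dehydrogenase complex, ranged from 116 through 132 to 184 CPM in control and from 122 through 155 to 169.7 CPM in UL. It had 222, 191, 197, 256 and 209 CPM in ULU, above every library of both other diets. Relative to control this was a log2(fold change) of 0.60 ± 0.13 (SE, adjusted p = 0.0177). No other gene overlaps its row. The other subunits of the complex did not pass the test. PDHA1, the alpha subunit of its decarboxylase, ranged from 159 to 219 CPM in control and from 204 to 261 CPM in ULU (log2(fold change) 0.33 ± 0.15, SE, adjusted p = 0.225). PDHB ranged from 255 to 381 CPM and from 326 to 410.1 CPM (log2(fold change) 0.17 ± 0.13, SE, adjusted p = 0.511). The shared dehydrogenase subunit DLD had a log2(fold change) of 0.16.

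GOT2 (chromosome 6, 20407198 to 20432068), the mitochondrial aspartate aminotransferase of the malate-aspartate shuttle, ranged from 322 through 382 to 543 CPM in control and from 382 through 395 to 459 CPM in UL. The ULU libraries had 565, 503, 458, 615 and 563 CPM. Among the controls, 5 of 6 piglets lay below the lowest ULU piglet, and Control 25 lay within the ULU range. Between ULU and control the log2(fold change) was 0.46 ± 0.12 (SE, adjusted p = 0.0485). Its cytosolic counterpart GOT1 had 135 to 252 CPM in control and 179 to 311 CPM in ULU, with a log2(fold change) of 0.43 ± 0.16 (SE, adjusted p = 0.158). MDH1 stood at 0.20 on the same scale.

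None of the 4 branched-chain genes passed the adjusted threshold in edgeR. At an unadjusted p-value under 0.05, 0 in UL vs control, 1 in ULU vs control and 2 in ULU vs UL were higher. The shares of all genes higher at that level were 5.84%, 10.1% and 6.16% in the same order. DESeq2 called BCKDHA in ULU vs control. BCAT2, the mitochondrial transaminase that begins branched-chain amino acid breakdown, ranged from 52.4 through 75.3 to 98.3 CPM in control and from 60.04 through 71.2 to 77.3 CPM in UL, and had 80.8, 87.8, 67.1, 111 and 71.9 CPM in ULU. Its diets overlapped throughout, and ULU vs control gave a log2(fold change) of 0.16 ± 0.15 (SE, adjusted p = 0.593), which turned to -0.03 on library totals alone. BCKDHA, the alpha subunit of the ketoacid dehydrogenase, had 27.0 to 37.9 CPM in control and 32.7 to 53.3 CPM in ULU (log2(fold change) 0.45 ± 0.13, SE, adjusted p = 0.0699). DBT, the acyltransferase core of this complex, ranged from 24.7 to 43.5 CPM in control and from 26.0 to 45.9 CPM in ULU, with a mean of 36.1 CPM in both. BCKDHB ranged from 24.1 to 43.8 CPM in UL and from 34.3 to 73.3 CPM in ULU, where the highest value was that of ULU 43 and the next was 44.1 CPM.

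In beta-oxidation, ACADVL and HADHA rose in ULU vs control. ACADVL (chromosome 12, 52576401 to 52581755), the very long chain acyl-CoA dehydrogenase of the first step, ranged from 53.4 through 58.6 to 83.8 CPM in control and from 60.5 through 75.7 to 80.0 CPM in UL. It had 93.3, 97.5, 73.6, 112 and 109 CPM in ULU, where 4 of 5 piglets exceeded every control and UL piglet and ULU 42 did not. The log2(fold change) was 0.64 ± 0.13 (SE, adjusted p = 0.0155), the largest of the 36 genes.

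HADHA ranged from 121 through 132 to 174 CPM in control and from 138 through 143 to 181 CPM in UL. It had 183, 182, 169.5, 192 and 198 CPM in ULU, with only ULU 42 within the control range. Its log2(fold change) was 0.43 ± 0.10 (SE, adjusted p = 0.0336). HADHB, transcribed from the opposite strand beside it, had a log2(fold change) of 0.16 ± 0.12 (SE, adjusted p = 0.4997). HADH, the short chain hydroxyacyl-CoA dehydrogenase, ranged from 133 through 171 to 199.5 CPM in control and had 220.1, 210.4, 194, 196 and 199 CPM in ULU (log2(fold change) 0.28 ± 0.12, SE, adjusted p = 0.202). The medium and long chain dehydrogenases ACADM and ACADL, the thiolase ACAA2 and the isomerase ECH1 had log2(fold change) values between 0.11 and 0.24, and none passed.

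ETFDH (chromosome 8, 47608689 to 47657436) passes electrons from the electron transfer flavoprotein to ubiquinone. It ranged from 127 through 143 to 186 CPM in control and from 120.3 through 138 to 158 CPM in UL. The ULU libraries had 190.1, 165, 186, 244 and 202 CPM, above every UL piglet, whereas Control 25 lay within their range. Against control the log2(fold change) was 0.42 ± 0.11 (SE, adjusted p = 0.0495). PPID overlaps the row on the opposite strand. ETFA had 198 to 298 CPM in control and 280.4 to 365 CPM in ULU, with a log2(fold change) of 0.39 ± 0.13 (SE, adjusted p = 0.0960). The carnitine shuttle genes CPT1B, SLC25A20 and CPT2 had log2(fold change) values of 0.41, 0.08 and 0.30, and none passed the test.

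**Figure D3:**
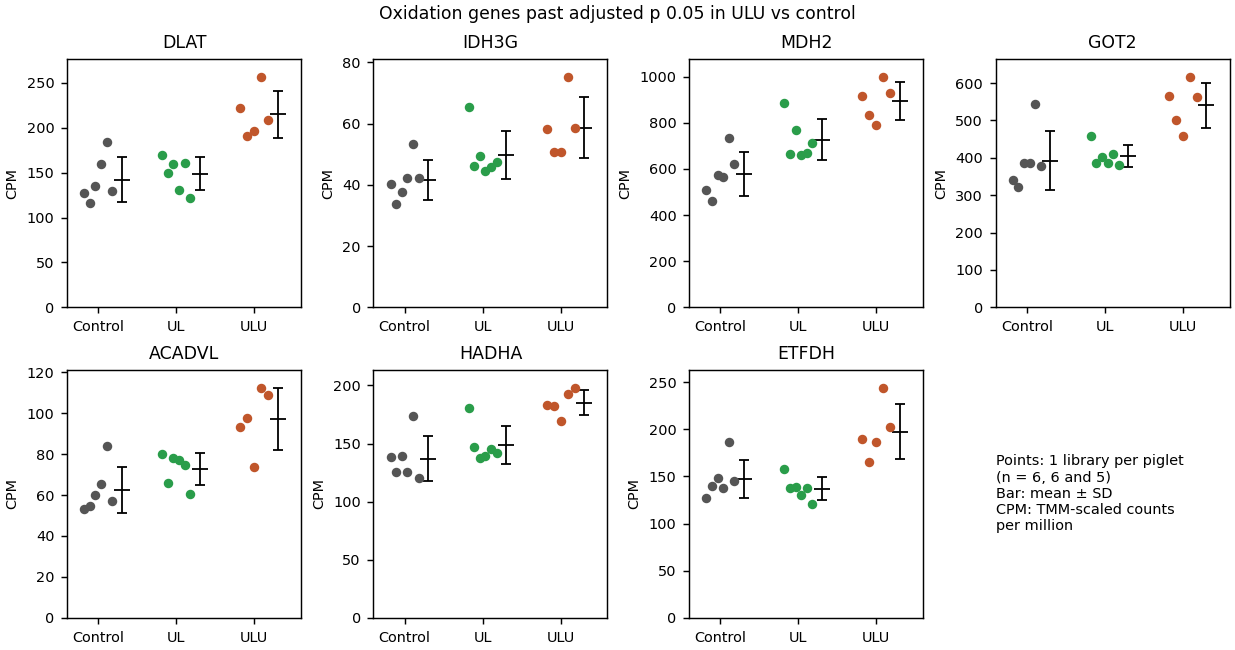
CPM of each library for the 7 genes with an adjusted p-value under 0.05 in ULU vs control, by diet (6 control, 6 UL and 5 ULU piglets); bars give the mean and SD, and the axes start at 0. DLAT and MDH2 do not overlap between ULU and control, and Control 25 is the highest control library in every panel.

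In UL vs control, none of the 36 genes passed the adjusted threshold. The same held for all 14203 genes, with 0.0% higher and 0.0% lower in edgeR, although DESeq2 called 152 genes, 0 of them among the 36. The log2(fold change) was above 0 for 25 genes and below 0 for 11, with a median of 0.06. Without UL 27 the median was -0.01 and 17 genes were above 0. At an unadjusted p-value under 0.05, 2 of the 36 were higher and 0 lower in UL, beside 5.84% and 5.01% of all genes. These were MDH2, with a log2(fold change) of 0.33 ± 0.12 (SE, adjusted p = 0.305), and ETFA, with 0.30 ± 0.12 (SE, adjusted p = 0.385). ETFA covered 198 through a median of 256 to 298 CPM in control and 251 through 292 to 415 CPM in UL. IDH3G came next with 0.26 ± 0.13 (SE, adjusted p = 0.470).

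In ULU vs UL, which differ by the enzyme alone, 35 of the 36 genes had a log2(fold change) above 0 and none passed the adjusted threshold. Of all genes, 0.00704% rose and 0.0282% fell by that edgeR test. The median of the 36 was 0.24, beside -0.02 over all genes. At an unadjusted p-value under 0.05, 14 of the 36 were higher and 0 lower in ULU, beside 6.16% and 4.68% of all genes. The 3 smallest p-values belonged to ETFDH (log2(fold change) 0.53 ± 0.11, SE, adjusted p = 0.104), DLAT (0.53 ± 0.13, SE, adjusted p = 0.134) and GOT2 (0.42 ± 0.12, SE, adjusted p = 0.240) in the edgeR test. DESeq2 called these 3 and also ACADVL and HADHA. ETFDH and DLAT did not overlap between ULU and UL (two-sided exact permutation test, p = 0.00216 for either gene), a pattern found for 1.09% of all genes. ECH1 was the exception in direction, at -0.08, and its highest UL library, UL 27, had 56.8 CPM where the other UL libraries reached 30.0 CPM at most. ULU vs UL and ULU vs control share the ULU libraries, so they are not independent.

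Single piglets moved most of the 36 genes together. UL 27 was the highest UL library for 33 of 36 genes. Control 25 was the highest control library for 30 genes and Control 22 the lowest for 25. ULU 43 was the highest ULU library for 19 genes, and ULU 42 was the lowest for 23. On the log2 scale, the median deviation of the 36 genes from their means over 17 libraries was 0.26 in UL 27, against -0.21 to -0.07 in the other UL libraries. It was 0.37 in ULU 43 and -0.01 in ULU 42. Control libraries ran from -0.39 in Control 22 to 0.18 in Control 25. Without UL 27, the ULU vs UL median of the 36 genes was 0.32 and 36 genes were above 0. With all libraries, 7 of the 36 genes and 423 of all genes were called in ULU vs control. Without Control 25 there were 13 and 799, and without ULU 43 there were 2 and 147. Libraries that stood high for these genes were not set apart by any label.

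**Figure D4:**
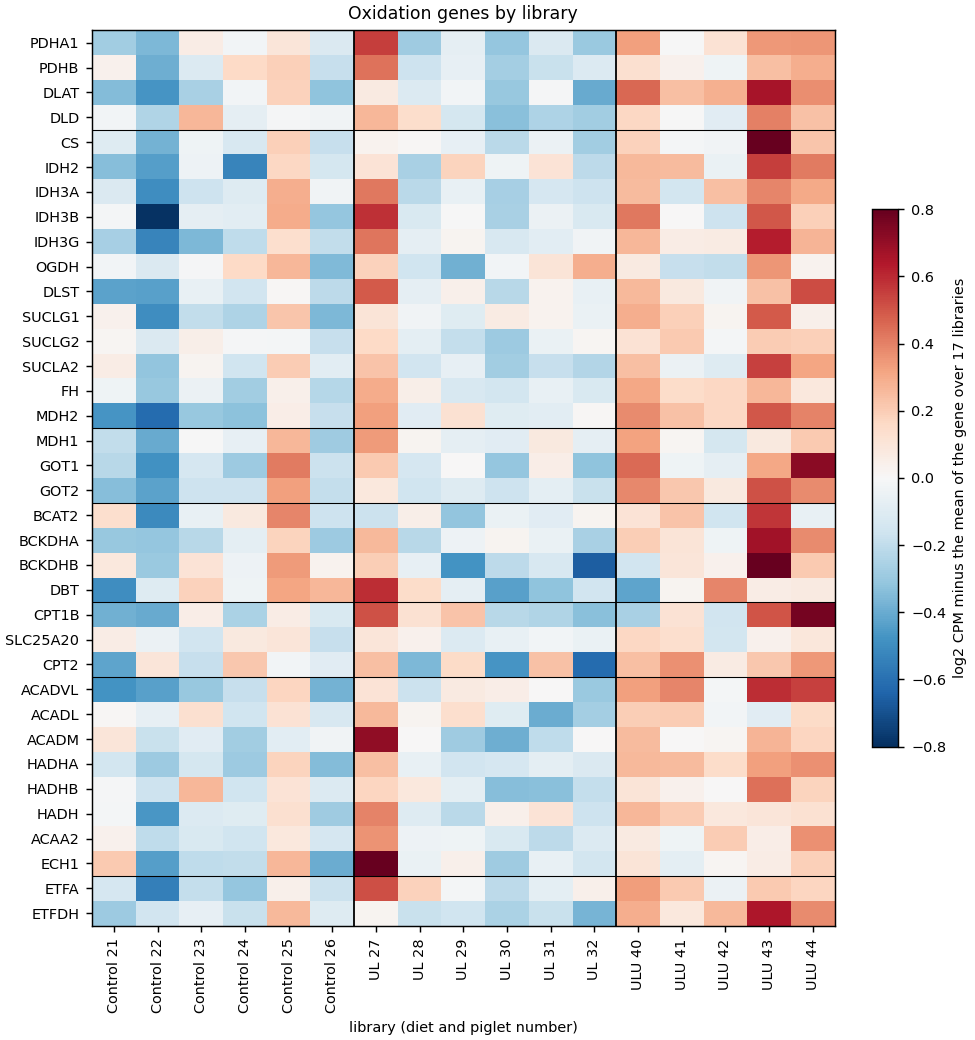
Log2 CPM of the 36 tested genes (rows, by pathway) in the 17 libraries (columns, by diet and piglet number) as the difference from the gene's mean over all libraries; red is higher and blue is lower. UL 27 and ULU 43 are red and Control 22 is blue for most genes, with median deviations of 0.26, 0.37 and -0.39.

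The genes varied together within diets. Over deviations from the diet means in 17 libraries, the median Pearson's r of the 630 pairs of genes was 0.57, and 620 pairs were above 0. The points of all pairs share the same libraries, depth and scaling. Of 10 pairs of partners listed, 9 could be tested, as ETFB had too few reads. IDH3A and IDH3G varied most closely, with r = 0.90 (permutation p = 2e-05, adjusted 0.00018) and rho = 0.87 (permutation p = 1e-05, the smallest that 100000 permutations give, adjusted 9e-05). IDH3A and IDH3B had r = 0.85 (permutation p = 0.00116, adjusted 0.00522) and rho = 0.71 (permutation p = 0.00298, adjusted 0.0067). PDHA1 and PDHB had r = 0.83 (permutation p = 0.00196, adjusted 0.0058) and rho = 0.75 (permutation p = 0.00228, adjusted 0.0067). Without the 2 libraries farthest from the median of the first gene, r was 0.89, 0.75 and 0.64 for these 3 pairs. BCKDHA with BCKDHB had r = 0.75 and rho = 0.56, SUCLG1 with SUCLA2 had 0.68 and 0.59, and HADHA with HADHB had 0.63 and 0.73, each with adjusted permutation p-values under 0.05. Their r without the 2 farthest libraries was 0.59, 0.47 and 0.65. The permutation test is against no correlation, and partners were not tested against the other pairs of genes. For DLAT with DLD (r = 0.52, adjusted permutation p = 0.0519), OGDH with DLST (r = 0.39, adjusted permutation p = 0.159) and SUCLG1 with SUCLG2 (r = 0.37, adjusted permutation p = 0.0897) the correlation did not pass for r, and the last turned to -0.14 on plain CPM. DLAT with DLD passed for rho (0.60, adjusted permutation p = 0.036), and its r was 0.42 without the 2 farthest libraries. OGDH with DLST (rho = 0.51, adjusted permutation p = 0.0567) and SUCLG1 with SUCLG2 (rho = 0.41, adjusted permutation p = 0.106) did not pass for rho.

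Other genes of the same pathways were listed by function, and 71 of 74 symbols had a row and 68 were tested. In ULU vs control, 4 of the 68 rose and 1 fell past the adjusted threshold, beside 1.99% and 0.993% of all genes. The median log2(fold change) of the 68 was 0.20, beside -0.03 over all genes. SDHA is the flavoprotein of succinate dehydrogenase, a citrate cycle enzyme. It covered 215 through 252 to 273 CPM in control and had 345, 296, 279, 409.5 and 352 CPM in ULU without overlap (log2(fold change) 0.45 ± 0.11, SE, adjusted p = 0.0423). ECI2, an enoyl-CoA isomerase, covered 21.3 through 26.9 to 36.9 CPM in control and had 40.6, 36.9, 40.2, 39.9 and 43.7 CPM in ULU (log2(fold change) 0.54 ± 0.14, SE, adjusted p = 0.0397). Both calls were lost without ULU 43, ULU 40 or Control 22, and also without other single libraries. Of 17 fits with 1 library left out, SDHA lost its call in 12 and ECI2 in 9. Both calls were also lost with edgeR on the 2 diets, with no filter on low counts and with the total count as a covariate. The same held with library totals only and without both UL 27 and ULU 40.

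BCKDK and PDK4, which also passed, are kinases that switch off dehydrogenase complexes by phosphorylating them. BCKDK, the kinase of the branched-chain ketoacid dehydrogenase, rose in ULU vs control. It covered 69.0 through 79.6 to 90.3 CPM in control and 76.2 through 92.3 to 105 CPM in UL, and had 123, 109, 109, 128 and 119 CPM in ULU, above both other diets. The log2(fold change) was 0.55 ± 0.10 (SE, adjusted p = 0.0103), and the adjusted p-value stayed under 0.05 with any 1 library left out. The call was lost with the total count as a covariate (adjusted p = 0.152) and with library totals only (adjusted p = 0.0785). PDK4, a kinase of pyruvate dehydrogenase known to be induced by fasting, fell in ULU vs control. It covered 5.09 through 12.1 to 38.9 CPM in control and 5.29 through 6.68 to 10.8 CPM in UL, and had 4.89, 7.15, 3.42, 4.68 and 7.10 CPM in ULU. The diets overlapped, since Control 21 had 5.09 CPM. The log2(fold change) was -1.67 ± 0.40 (SE, adjusted p = 0.0336), and the call was lost without Control 22 or without ULU 40, 41, 42 or 43. It was also lost with limma-voom (adjusted p = 0.0652), with edgeR on the 2 diets (adjusted p = 0.0808) and with the total count as a covariate (adjusted p = 0.168).

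None of the 68 genes passed in UL vs control or ULU vs UL by edgeR. At an unadjusted p-value under 0.05, UL vs control had 2 higher and 4 lower, beside 5.84% and 5.01% of all genes. ULU vs UL had 20 higher and 0 lower at that level, beside 6.16% and 4.68% of all genes. The smallest p-values in UL vs control were those of PDK4 (log2(fold change) -1.26 ± 0.37, SE, adjusted p = 0.213), MCCC1, an enzyme of leucine breakdown (-0.29 ± 0.09, SE, adjusted p = 0.249), and CD36, a fatty acid transporter (-0.30 ± 0.11, SE, adjusted p = 0.338). In ULU vs UL, the 2 smallest were those of BCKDK (0.37 ± 0.10, SE, adjusted p = 0.212) and UCP3, a mitochondrial uncoupling protein (1.21 ± 0.36, SE, adjusted p = 0.241). MCCC1 was lower in all 6 UL piglets (267 to 294 CPM) than in any control piglet (305 to 392 CPM) or ULU piglet (300.0 to 408 CPM). Of all 14203 genes, 51 were lower in UL than in control without overlap, and 1.09% were higher in ULU than in UL without overlap.

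Other measures were also compared with control, in UL as well as in ULU. Genes of the mitochondrial chromosome took 14.05% to 15.9% of the counts in control, 8.64% to 14.8% in UL and 8.002% to 11.6% in ULU, with no overlap between ULU and control (two-sided exact permutation test, p = 0.00216). UL vs control had p = 0.0108 in that exact test. UL 27 and ULU 40 were the lowest of their diets, and without both the shares were 10.49% to 14.8% in UL and 9.54% to 11.6% in ULU (exact permutation p = 0.0130 and 0.00476 against control). The 13 mRNAs of that chromosome had a median log2(fold change) of -0.31 in ULU vs control, where none passed the edgeR test and 3 were lower at an unadjusted p-value under 0.05. Their median was -0.35 in UL vs control, with 5 lower at that level. Without both libraries the medians were -0.15 in ULU and -0.26 in UL. With mitochondrial chromosome genes left out of the fit, the same 7 of the 36 genes were called. Of the listed marker genes, MYH7, MYH1, MYH2, MYH4, TTN, MB and VWF could not be matched to a row, so no myosin heavy chain stands in the fibre lists. The 9 slow fibre genes had a median of 0.67 in ULU vs control, and 2 of them, TNNT1 and TNNI1, rose. Their summed level was 3605 to 8079 CPM in control, 5853 to 11280 CPM in UL and 6187 to 13450 CPM in ULU. The 9 fast fibre genes had a median of 0.46, and 3, TNNT3, ATP2A1 and ACTN3, rose, with sums of 77910 to 141300 CPM in control, 98570 to 152300 CPM in UL and 112100 to 167800 CPM in ULU. In UL vs control no fibre gene passed, with medians of 0.56 for slow fibre genes (7 of 9 higher at an unadjusted p-value under 0.05) and 0.33 for fast fibre genes (4 of 9). Of all genes, 5.84% were higher and 5.01% lower at that level in UL vs control. For ULU vs control these shares were 10.1% and 8.78%, and 1.99% rose and 0.993% fell past the adjusted threshold. Without both UL 27 and ULU 40, 0 slow and 2 fast fibre genes were called in ULU vs control, beside 183 of all genes. The muscle genes ACTA1, CKM and MYL1 summed to 95360 to 154500 CPM in control, 117700 to 158100 CPM in UL and 133400 to 255000 CPM in ULU. Their median log2(fold change) was 0.55 in ULU vs control, where none passed edgeR and 2 were higher at an unadjusted p-value under 0.05, and 0.25 in UL vs control. The part of fibre type and of muscle content in the results was not tested.

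Markers of other cells did not pass the adjusted threshold of edgeR in ULU vs control. At an unadjusted p-value under 0.05, 2 fibroblast genes and 1 leukocyte gene were lower, while 1 adipocyte gene was higher and 1 lower. Of all genes, 10.1% were higher and 8.78% lower at that level. The 6 fibroblast genes were all below 0 with a median of -0.33, and summed to 3175 to 7216 CPM in control and 2764 to 6867 CPM in ULU. Of 6 leukocyte genes 5 were tested, all below 0 with a median of -0.62, and their sum was 31.5 to 142 CPM in control and 19.5 to 127 CPM in ULU, with LYZ at 0 in all libraries. Of 6 adipocyte genes 5 were tested, with 4 below 0, a median of -1.10 and a sum of 121 to 639.9 CPM in control and 77.7 to 229 CPM in ULU. The top of the control range was Control 24 alone, since the next control library had 234 CPM, and without Control 24 the adipocyte median was -0.32. The 5 endothelial genes had a median of -0.01, 4 smooth muscle genes of -0.25 and 3 erythroid genes of 0.52. ULU libraries had 16137365 to 26546810 counts and control libraries 16335304 to 23433672, and the difference in totals had p = 0.0844 in the two-sided exact permutation test. The part of these measures in the results was not tested beyond the fits given.

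**Figure D5:**
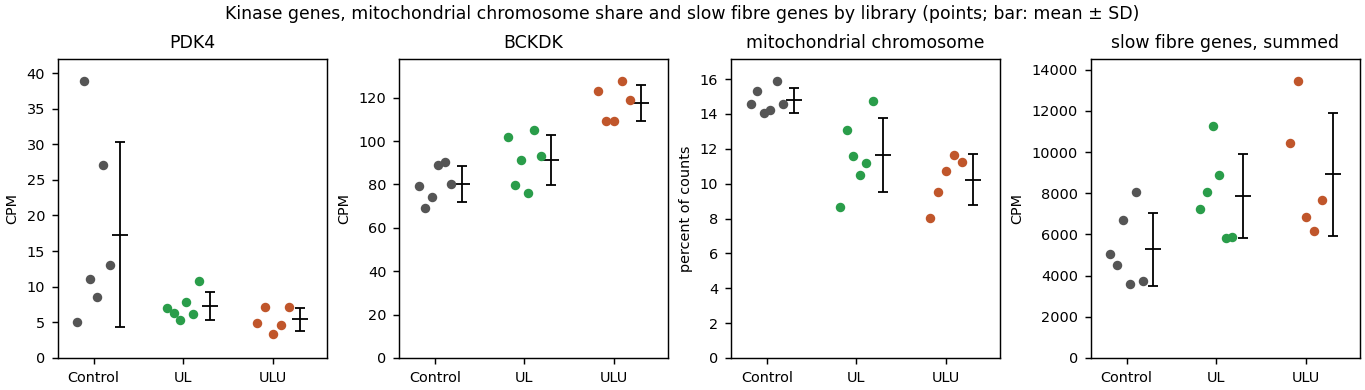
CPM of PDK4 and BCKDK, the percent of counts on mitochondrial chromosome genes, and the summed level of 9 slow fibre genes in CPM, for each library by diet (6 control, 6 UL, 5 ULU; bars give the mean and SD). BCKDK is higher in all 5 ULU piglets than in any other piglet, and the mitochondrial chromosome share is lower in all 5 ULU piglets than in any control piglet.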

How the data were processed

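The 75 nt single reads had been trimmed (fastp) and mapped (HISAT2), and the authors deposited the raw counts that featureCounts made for each gene (version 2.0.1, Sscrofa11.1 and Ensembl annotation 104 in the file header, with no strand option). A deposited mean of the counts over the libraries was a signal used only to check the columns, and the gene length, a column of another kind, gave CPM per kilobase. All 17 count columns were used. Genes were named by Ensembl identifier, and 5 listed genes by RefSeq position. The members and lists were chosen with earlier results of these data known.

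Counts were fitted with edgeR 4.0.16 in R 4.3.3 in 1 model of 17 libraries, with TMM factors, filterByExpr and the quasi-likelihood test with Benjamini-Hochberg adjustment over 14203 genes. As a standard error, the absolute log2(fold change) was divided by the root of the F statistic. A prior count of 2 went into log2 CPM. Genes named were those past an adjusted p-value of 0.05, the 3 smallest p-values of each comparison and the members whose proteins the study discusses, and any other member given with values (such as IDH2, FH and CS) was chosen after its values were seen. Pairs of partners were tested with 100000 permutations within diets. Alternatives were DESeq2 1.42.0, voom in limma 3.58.1, other scalings, no filter, fits of 2 diets, the total count as a covariate, leaving out each library and, chosen after seeing the data, library totals only and the fit without both UL 27 and ULU 40. The depth limits low genes most, and 3 reads, at most 0.186 CPM, cover counting error only. No library repeated another, as counts differed by a chi-square of at least 20.7 per degree of freedom. Sequences are not shown, and proteomics was not analysed here. The values of 1 other pathway gene that the rule named are not reported here.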

Additional observations from a re-analysis of the deposited data

Results flagged for a closer look

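Of 108 groups of 5 or 6 libraries (36 genes in 3 diets), 18 held a library whose CPM stood far from the others, where the gap to the nearest library exceeded Dixon's 95% critical value for the range. Chance flags about 1 in 20 groups, and genes that vary together are flagged together. UL 27 was the highest UL library in 12 of them. Its PDHA1 level was 300 CPM, against 194 CPM in the next UL library, its PDHB level was 453 CPM (next 319) and its IDH3A level was 173 CPM (next 123). For IDH3B it had 269 CPM (next 178), for IDH3G 65.3 CPM (next 49.4) and for DLST 73.0 CPM (next 53.3). For MDH1 it had 593 CPM (next 494), for GOT2 459 CPM (next 410) and for ACADM 506 CPM (next 310). For HADHA it had 181 CPM (next 147), for ACAA2 89.7 CPM (next 68.2) and for ECH1 56.8 CPM (next 30.0).

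Control 25 was the highest control library in 4. It had 252 CPM of GOT1 (next 172), 543 CPM of GOT2 (next 386), 174 CPM of HADHA (next 139) and 186 CPM of ETFDH (next 149). ULU 43 was the highest ULU library in 2, with 925 CPM of CS (next 598) and 73.3 CPM of BCKDHB (next 44.1). UL 27 also had the lowest mitochondrial chromosome share of the UL libraries, 8.64%, and 0.566 CPM of the mitochondrial ATP8, as ULU 40 had 0.437 CPM, against 911 to 1528 CPM in the other 15 libraries. In addition, ULU 43 had the most counted reads, 26546810, with the lowest TMM factor, 0.765. What set these libraries apart was not tested.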

How the results depend on the processing

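No paired analysis was possible because each piglet number occurs in 1 diet. In ULU vs control, 7 of the 36 genes and 423 of all genes were called. DESeq2 called 13 and 1069 on all libraries and 12 and 825 on the libraries of the 2 diets, each time with all 7. edgeR on the 2 diets called 1 and 111, no filter on low counts 3 and 228, and the total count as a covariate 0 and 12. Without both UL 27 and ULU 40, the libraries low in ATP8, also added after seeing the data, 4 and 183 were called in ULU vs control, and the other comparisons each had 3 calls over all genes. Library totals only, added after seeing the data, called 0 of the 36 in ULU vs control, with a median log2(fold change) of 0.14 in place of 0.32. With this scaling 27 of the 36 genes were above 0 in ULU vs control (36 with TMM) and 30 in ULU vs UL (35 with TMM). Among the genes named by rule, it turned BCAT2 to -0.028 and PDHB to -0.00178 in ULU vs control and ETFA to -0.025 in ULU vs UL. It left the gap between the medians of the 36 genes and of all genes at 0.35 (0.34 with TMM). In UL vs control, 0 genes were called, but 152 and 149 by DESeq2. In ULU vs UL, 5 of all genes were called, against 252 and 246 by DESeq2 with 5 of the 36 genes each time, 8 by limma-voom, 1 by edgeR on the 2 diets, 8 with no filter, 1 with the covariate and 9 with library totals only. With 1 library left out, the counts ran from 0 to 16 (without Control 25) in UL vs control, from 147 (without ULU 43) to 799 (without Control 25) in ULU vs control with 2 to 13 of the 36 genes, and from 1 to 7 in ULU vs UL with 0 of the 36. On plain CPM the r of SUCLG1 and SUCLG2 was -0.14. Of 1344 values of named genes under alternatives, 1188 kept direction and side of the threshold, 128 lost their call, 25 gained one and 3 reversed. The causes were not tested. Genes with few reads, such as ETFB, are limited by depth, and 5 or 6 piglets per diet limit all comparisons.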
